A study of Mus musculus with 24 samples.

Results

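A set of 9 genes of meiotic prophase was followed in single ovulated mouse oocytes, called eggs here: Hormad1, Hormad2, Sycp1, Sycp2, Sycp3, Spo11, Msh4, Msh5 and Mlh3. They were taken by symbol from a table of 25965 entries, and each of the 9 had 1 entry. Hormad1 prompted the choice, because it had been seen to be high in most transgenic eggs, so its difference between the genotypes is given as a description with no test. The other 8 were added as further genes of chromosome pairing and recombination, and the question was whether they went with Hormad1.

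Eggs came from adult females after natural ovulation and were freed of cumulus cells and zona pellucida before lysis. Transgenic females (Thy1.2-AMHTg/0) carried a transgene in which the Thy1.2 promoter, best known for driving transgenes in neurons, drives anti-Müllerian hormone, a hormone of growing follicles, and wild-type females (Thy1.2-AMH0/0) did not carry it. Exact ages, the strain background and the number of founder lines were not given in the sources used here. There were 4 females of each genotype, 1 of each to a sequencing lane, with 2 or 3 eggs apiece. The 10 transgenic and 11 wild-type eggs with values were analysed beside 1 kit control RNA.

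Levels are given as RPM, a gene's reads scaled to a library of 1000000 reads. The egg libraries held 20441302 to 33341040 reads, so that 3 reads were worth between 0.0900 and 0.147 RPM. All 10 egg markers examined, such as Gdf9 and the zona genes, had at least 1 RPM in every egg. Summed cumulus and granulosa markers reached at most 3.29 RPM except in wild-type egg C of lane 2, at 31.4 RPM. None of these 12 markers averaged 1 RPM, and 1 of them, Foxl2, a defining granulosa gene, had no reads in any egg. Summed markers of late male germ cells were 15.5 to 57.5 RPM in transgenic and 11.5 to 37.0 RPM in wild-type eggs. Of these 10 markers, 2 averaged at least 1 RPM and 1 reached it in every egg, while Tnp1, Smcp and Pgk2 had 0 reads. Summed markers of oviduct epithelium and of blood cells reached at most 7.25 and 7.00 RPM. The female was the replicate throughout. Amplified reads are not independent molecules, so counting intervals cover counting error only.

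In fetal ovaries, oocytes pass through meiotic prophase: each chromosome folds onto a protein axis, programmed DNA breaks are made, partner chromosomes are zipped together by the synaptonemal complex, and some breaks mature into crossovers. HORMAD1 and HORMAD2 sit on axes that have not yet paired and are removed as pairing proceeds. An ovulated egg has long left that stage and is arrested at the second meiotic metaphase, so these transcripts are measured here in a cell whose pairing and recombination are over.

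Hormad1 (ENSMUSG00000028109, chromosome 3, 95559677 to 95587671, plus strand; coordinates here are those of the deposited table, GRCm38) encodes the axis protein that promotes break formation and marks unpaired axes. In the 3 transgenic eggs of lane 2 it stood at 67.9, 57.7 and 50.5 RPM. The 3 of lane 3 had 10.9, 25.0 and 24.01 RPM, and the 2 of lane 4 had 20.0 and 30.1 RPM. All 8 of these eggs lay above every wild-type egg.

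The transgenic female of lane 1 did not share this level. Her eggs B and C held 0.994 and 0.0900 RPM, from 27 and 3 reads, with exact binomial 95% intervals of 0.655 to 1.45 and 0.0186 to 0.263 RPM. These were libraries of 27163800 and 33341040 reads, the second of them the deepest of all, and both values lay within or below the wild-type range. A further egg of this female, egg A, was not analysed here.

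Wild-type eggs held little Hormad1, but reads were present in all 11. The values were 2.43, 1.38 and 0.684 RPM in lane 1, 2.05, 0.145 and 2.38 RPM in lane 2, 1.80, 0.411 and 0.196 RPM in lane 3, and 0.774 and 0.623 RPM in lane 4. The transgenic eggs together held 6438 Hormad1 reads and the wild-type eggs 305, and the control RNA held 0 reads, where 3 reads would be 0.136 RPM.

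By female, mean Hormad1 came to 26.1 ± 24.2 RPM for the transgenic group, against 1.13 ± 0.442 RPM for the wild type (SD, n = 4 and 4). The transgenic female means were 0.542, 58.7, 20.0 and 25.1 RPM in lanes 1 to 4, against 1.499, 1.52, 0.802 and 0.698 RPM in the wild type, so the 2 groups overlapped through lane 1. On the log2(RPM + 1) scale, which understates changes of low genes, the genotypes differed by 2.87 ± 0.81 (SE), and by -0.70, 4.70, 3.56 and 3.92 within lanes 1 to 4. With the lane 1 transgenic female left out it was 3.97. This was the largest log2 difference of the 10987 genes that averaged 1 RPM or more; it is the value that prompted the choice, and nothing is read from its rank.

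Eggs of a high female resembled each other. The highest sister egg held 1.35, 2.29 and 1.503 times the RPM of the lowest in the transgenic females of lanes 2, 3 and 4. In the wild type that ratio was 3.56, 16.4, 9.19 and 1.24 in lanes 1 to 4, and in the transgenic female of lane 1 it was 11.0, at counts of a few to 63 reads an egg. Over the 21 eggs the SD of Hormad1 was 2.13 on the log2 scale, against a median of 0.62 for the 1642 genes within 0.5 of its mean log2 level. This SD includes the high transgenic eggs that prompted the choice, so nothing is read from its size.

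**Figure D1:**
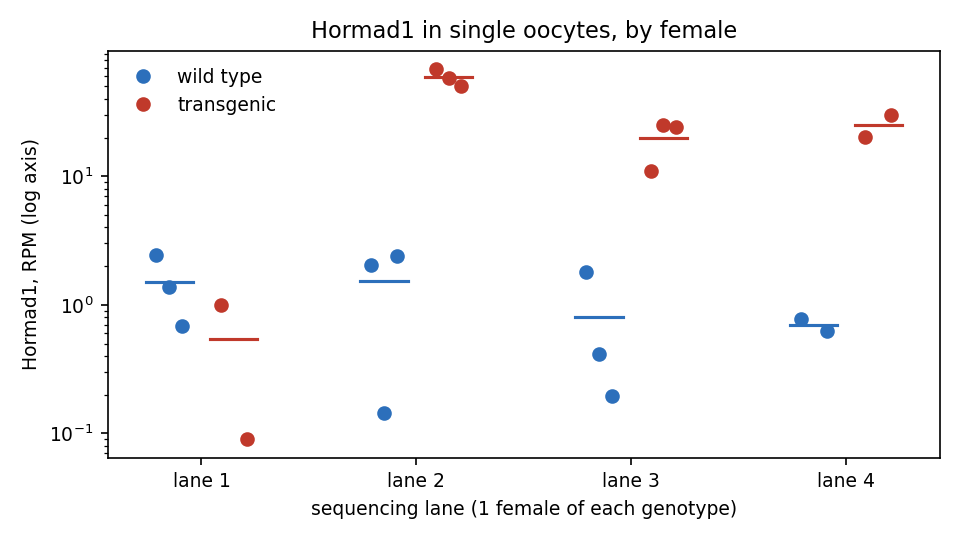
Hormad1 RPM (log axis) in each of the 21 eggs, grouped by sequencing lane, with wild-type eggs in blue and transgenic eggs in red; each bar is the mean of 1 female. The 8 transgenic eggs of lanes 2 to 4 sit between 10.9 and 67.9 RPM, and the 2 transgenic eggs of lane 1 sit among or below the wild-type eggs, which run from 0.145 to 2.43 RPM.

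The genes next to Hormad1 showed no single pattern. Ctsk and Ctss, the protease genes upstream, had reads in 1 and 3 of the 21 eggs, with at most 0.228 and 0.294 RPM, although Ctss ends 3273 bases before Hormad1 starts. Arnt, a dimer partner of the hypoxia and dioxin receptor factors, had 34.9 ± 6.42 RPM in the transgenic group, and 24.3 ± 6.47 RPM in the wild type, with log2 differences of -0.18, 0.90, 0.24 and 1.27 in lanes 1 to 4 and thus the sign of Hormad1 in each lane. Downstream, Golph3l, a Golgi phosphoprotein gene that starts 1262 bases after Hormad1 ends, stood at 65.9 ± 28.6 against 73.9 ± 13.5 RPM. The pseudogene Rps10-ps1 held 0.112 ± 0.024 against 0.237 ± 0.041 RPM, and Ensa, which encodes the mitotic phosphatase inhibitor endosulfine alpha, held 14.1 ± 2.16 against 14.5 ± 2.56 RPM (SD, n = 4 and 4 females).

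Reads could be shared with 2 processed pseudogenes of Hormad1 that the GENCODE M21 annotation lists and that have no entry in the table. Gm15529 (chromosome 6, 12857397 to 12858390) matched the Hormad1 transcript in 98.0% of 993 aligned bases, and Gm7167 (chromosome 15, 91128728 to 91129897) in 94.6% of 1159. A stretch of 60 bases of the Hormad1 coding sequence, bases 453 to 512 in GENCODE M21, is shown as a place where reads of the 3 can be told apart; capitals mark the bases at which the 3 sequences are not all the same, and each copy differed from Hormad1 at 4 of them. Gm15529 is closer to Hormad1 over its whole alignment than here, with 20 mismatches in 993 bases, and Gm7167 had 63 in 1159.
Hormad1: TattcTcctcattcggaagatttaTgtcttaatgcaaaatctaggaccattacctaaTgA
Gm15529: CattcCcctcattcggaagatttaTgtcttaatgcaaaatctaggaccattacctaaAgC
Gm7167: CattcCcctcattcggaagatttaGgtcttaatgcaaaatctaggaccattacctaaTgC
The sources used here do not say how reads with several matches were treated, and the share of Hormad1 reads that came from these copies was not tested.

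Of the 8 other genes, 6 averaged the 1 RPM needed for the comparison of the genotypes, and none of the 6 passed it (limma on female means, Benjamini-Hochberg over 10987 genes; adjusted p from 0.863 to 0.997). Over all genes tested 0% passed an adjusted p of 0.05, 6.81% had an unadjusted p under 0.05 (2.78% with higher and 4.03% with lower values in transgenic females), and 4.31% had female means that did not overlap between the genotypes (1.67% higher). Among the 6 genes these counts were 0, 0 and 0. All 6 log2 differences lay above 0, where 47.8% of all genes did, but they were small, with a median of 0.09 against -0.01 over all genes, and the signs of Hormad2, Sycp1, Sycp3 and Msh4 turned under some of the alternatives.

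Hormad2, the paralog that monitors unpaired axes, was low in both genotypes (chromosome 11, 4345814 to 4441105). It ran from 0.875 to 5.03 RPM in transgenic eggs (median 2.99) and from 0 to 9.56 RPM in wild-type eggs (median 2.91). The genotypes overlapped fully, with female means of 3.05 ± 0.805 and 3.20 ± 2.03 RPM. The log2 difference was 0.15 ± 0.40, with a 95% interval of 0.612 to 2.01 as a fold (limma, adjusted p = 0.939). In lane 3 the transgenic eggs held 4.85, 0.875 and 1.41 RPM of Hormad2, while Hormad1 in the same eggs was 10.9, 25.0 and 24.01 RPM. In lane 2 they held 5.03, 4.77 and 2.77 RPM of Hormad2, in the same order as their Hormad1 of 67.9, 57.7 and 50.5 RPM. The order was also shared in lane 1 and was opposite in lane 4.

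Sycp2 and Sycp3 encode the 2 partners of the axial element. Sycp2 (chromosome 2, 178345293 to 178407685) ran from 145 to 241 RPM in transgenic eggs (median 191) and from 153 to 217 RPM in wild-type eggs (median 180). It was the steadiest of the 9 that had reads: sister eggs differed with an SD of 0.20 on the log2 scale. Its female means of 193 ± 22.5 and 184 ± 13.3 RPM gave a log2 difference of 0.06 ± 0.14, a fold of 0.847 to 1.28 (limma, adjusted p = 0.929).

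Sycp3 (chromosome 10, 88459569 to 88473236) ran from 27.2 to 88.5 RPM in transgenic (median 56.2) and from 17.8 to 96.4 RPM in wild-type eggs (median 44.3). Its sister eggs were more uneven than those of Sycp2, with an SD of 0.69. Female means were 53.2 ± 7.92 and 51.9 ± 19.3 RPM, a log2 difference of 0.12 ± 0.25 and a fold of 0.746 to 1.58 (limma, adjusted p = 0.918).

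Sycp1, the transverse filament that joins paired axes, lies on the same chromosome as Hormad1 (chromosome 3, 102818499 to 102936100), 7.26 Mb away. It ran from 16.6 to 65.4 RPM in transgenic (median 34.0) and from 14.6 to 48.1 RPM in wild-type eggs (median 28.8). Female means were 31.2 ± 11.7 and 29.8 ± 8.81 RPM, a log2 difference of 0.03 ± 0.27 and a fold of 0.679 to 1.54 (limma, adjusted p = 0.984). The highest value, 65.4 RPM, was in the transgenic egg of lane 3 with the lowest Hormad1 of that female.

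Spo11, the nuclease subunit that makes the breaks (chromosome 2, 172977700 to 172993576), had 0 reads in all 21 eggs. A count of 0 allows up to 0.0125 RPM over the transgenic and 0.0116 RPM over the wild-type eggs (3 reads over the group). The control RNA held 4 reads, 0.181 RPM. A genotype difference was not detectable at this depth.

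Msh4 and Msh5 encode the clamp that stabilises crossover intermediates, and the 2 transcripts stood far apart. Msh4 (chromosome 3, 153857147 to 153906138) ran from 46.8 to 112 RPM in transgenic (median 82.5) and from 59.8 to 115 RPM in wild-type eggs (median 76.5). Msh5 (chromosome 17, 35028605 to 35046745) ran from 0.0486 to 2.62 RPM (median 1.16) and from 0 to 4.01 RPM (median 0.457).

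Neither differed between the genotypes beyond the spread of the females. Msh4 had female means of 78.8 ± 14.1 and 77.0 ± 12.0 RPM, a log2 difference of 0.0037 ± 0.18 and a fold of 0.767 to 1.31 (limma, adjusted p = 0.997). Msh5 had 1.41 ± 0.245 and 1.37 ± 0.612 RPM, a log2 difference of 0.20 ± 0.24 and a fold of 0.800 to 1.66 (limma, adjusted p = 0.863).

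Mlh3, a subunit of a nuclease that resolves crossovers, was near the limit of detection (chromosome 12, 85234529 to 85270591). It had reads in 6 of 10 transgenic eggs (0 to 2.49 RPM, median 0.224) and in 9 of 11 wild-type eggs (0 to 2.32 RPM, median 0.310). Female means were 0.609 ± 0.313 and 0.741 ± 0.197 RPM, below the level tested. With a minimum of 0.1 RPM in place of 1 RPM its log2 difference was -0.12 ± 0.17 (limma, adjusted p = 0.888). The control RNA held 18.9 RPM.

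**Figure D2:**
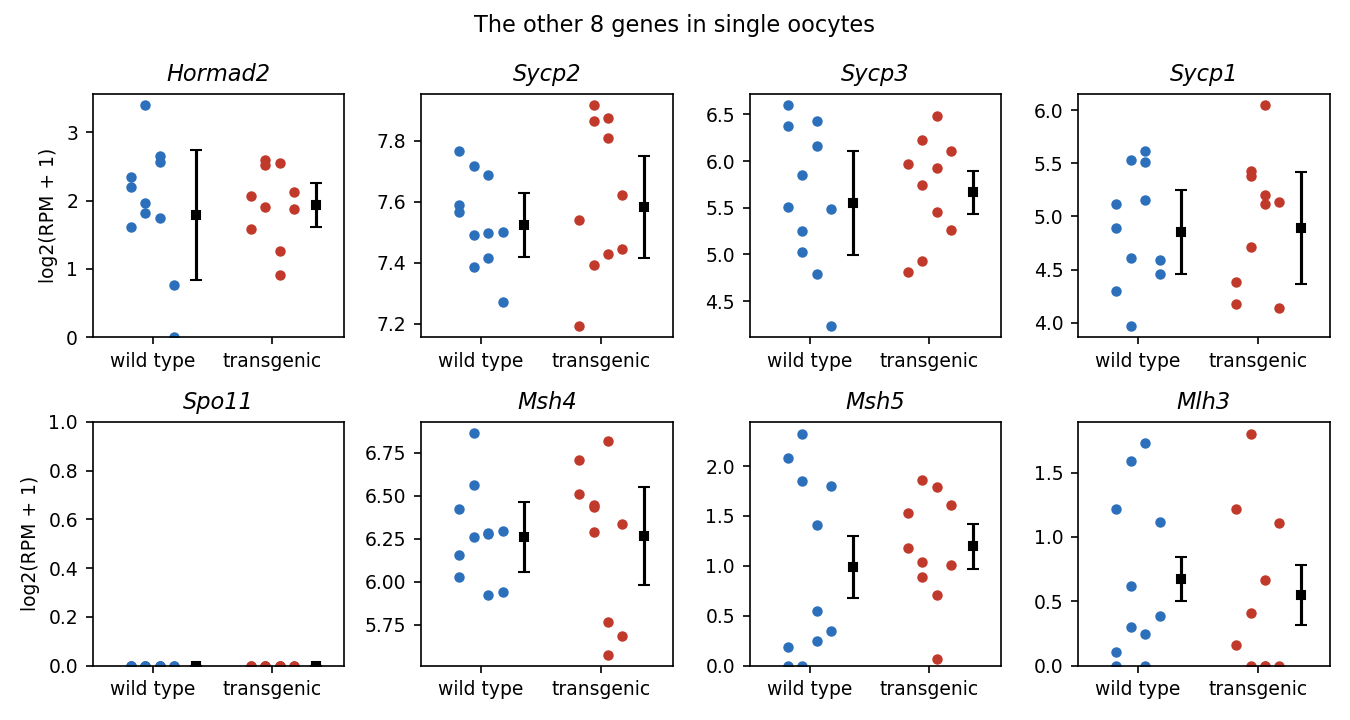
The 8 other genes in each egg on the log2(RPM + 1) scale, wild-type eggs in blue and transgenic eggs in red; squares and bars are the mean and SD of the 4 female means, and each panel has its own axis. The 2 genotypes overlap in every panel, and Spo11 is at 0 in all 21 eggs.

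Divided by exon length (GENCODE M21, all exons of a gene joined), the levels in wild-type females were highest for the axial element genes. Sycp3 and Sycp2 stood at 41.1 ± 15.3 and 30.8 ± 2.22 RPM per kilobase of exon, and their female ranges overlapped. Msh4 at 11.2 ± 1.74 and Sycp1 at 8.39 ± 2.48 formed the next pair, also overlapping. Hormad2 at 1.17 ± 0.742 and Hormad1 at 0.654 ± 0.256 overlapped in turn, followed by Msh5 at 0.248 ± 0.111, Mlh3 at 0.098 ± 0.026 and Spo11 at 0. Hormad2 was uneven between females, from 0.127 to 1.83, and its range covered that of Msh5. In transgenic females Hormad1 stood at 15.1 ± 14.0 on this scale, with female values from 0.313 to 33.9. The highest of these values was near that of Sycp2, and the order of the other 8 genes was the same in both genotypes.

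Across the 21 eggs, which share females, lanes and library depth, the 6 tested genes showed a range of likeness to Hormad1 that was highest for Sycp2. Pearson's r of log2(RPM + 1) with Hormad1 was 0.44 for Sycp2, 0.19 for Sycp1, 0.18 for Sycp3, 0.13 for Hormad2, -0.03 for Msh5 and -0.14 for Msh4. Over the 8 female means it was 0.70 for Sycp2, 0.41 for Sycp1, 0.31 for Sycp3, 0.23 for Hormad2, 0.19 for Msh5 and -0.31 for Msh4. Within the genotypes the r of Sycp2 was 0.51 over the transgenic and 0.34 over the wild-type eggs, while that of Sycp1 was 0.44 and -0.55 and that of Msh4 -0.34 and 0.61. The library total had an r of -0.33 with Hormad1, the number of entries detected 0.0030, and the summed markers of the cell types -0.21 to 0.06.

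The wider list of prophase genes held 75 symbols in 9 roles, of which 60 were found in 61 entries beside Hormad1. Many were still abundant in the ovulated egg: 31 entries had a mean of at least 10 RPM, and 5 had no reads in any egg (Spo11, the cohesin Rec8, the meiotic inducer Stra8, Tex101 and Taf7l). Of the 44 entries tested, 29 were higher and 15 lower in transgenic females, none passed the threshold, and 2 had an unadjusted p under 0.05, beside 6.81% of all genes. The median log2 difference was 0.08, against -0.01 over all genes.

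Among axis and initiation genes, Mei4, listed with the axis although its protein acts in break formation, had 132 ± 32.1 RPM in the transgenic group, and 141 ± 10.8 RPM in the wild type. Sycp2l, the oocyte paralog of Sycp2, had 2 entries, at 59.9 ± 12.3 against 49.5 ± 10.8 RPM and 17.4 ± 5.96 against 11.8 ± 2.899 RPM. The entries of the break formation role were scarce, though unlike Spo11 the other 3 had reads: Prdm9, which places the breaks, averaged 0.806 and 1.01 RPM, Mei1 0.186 and 0.373 RPM, and Gm960, which encodes the partner of SPO11, 0.0793 and 0.0963 RPM. None of the 4 genes of that role reached the level tested.

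The central region was well represented. Syce2 and Tex12, which build the central element, stood at 296 ± 18.4 against 343 ± 76.4 RPM and 65.1 ± 10.2 against 59.4 ± 8.94 RPM. Of the meiotic cohesins Smc1b was the most abundant, at 20.8 ± 5.13 against 26.4 ± 5.82 RPM. Rad21l followed at 2.55 ± 1.21 against 1.94 ± 0.897 RPM, and Stag3 averaged 0.413 and 0.724 RPM.

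The strand exchange genes Brca2 and Hsf2bp, which help to load recombinase onto resected ends, were both abundant. Brca2 stood at 474 ± 62.0 against 407 ± 58.8 RPM and Hsf2bp at 206 ± 23.0 against 195 ± 27.8 RPM. Besides Msh4, the most abundant crossover genes were the nuclease Exo1, at 269 ± 27.2 against 255 ± 31.3 RPM, and Tex11, at 66.4 ± 14.5 against 75.1 ± 7.82 RPM. Several of these genes also serve DNA repair outside meiosis.

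Germline and surveillance genes gave the highest levels on the list. Dazl, a germ cell RNA-binding protein, stood at 2116 ± 229 against 2165 ± 119 RPM, and the checkpoint kinase Chek1 at 1449 ± 164 against 1483 ± 65.3 RPM. Stk31 averaged 70.3 and 69.6 RPM and the piRNA pathway gene Tdrd1 43.6 and 48.6 RPM. Brca1 stood at 87.9 ± 10.8 against 73.4 ± 6.31 RPM.

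The 2 entries with an unadjusted p under 0.05 were Trp63 and Sun1, both at higher values in transgenic females. Trp63, the p53 relative that eliminates damaged oocytes, held 36.4 ± 5.76 against 25.8 ± 5.42 RPM, with a log2 difference of 0.49 ± 0.20 and higher values in 4 of 4 lanes (limma, adjusted p = 0.724). Sun1, the nuclear envelope protein that tethers telomeres, held 89.3 ± 18.2 against 66.9 ± 10.7 RPM, with a log2 difference of 0.40 ± 0.17 and higher values in 3 of 4 lanes (limma, adjusted p = 0.724). The other named telomere genes were Ccdc79, at 85.9 and 81.5 RPM, and Ccdc155, at 1.85 ± 0.431 against 1.09 ± 0.151 RPM.

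**Figure D3:**
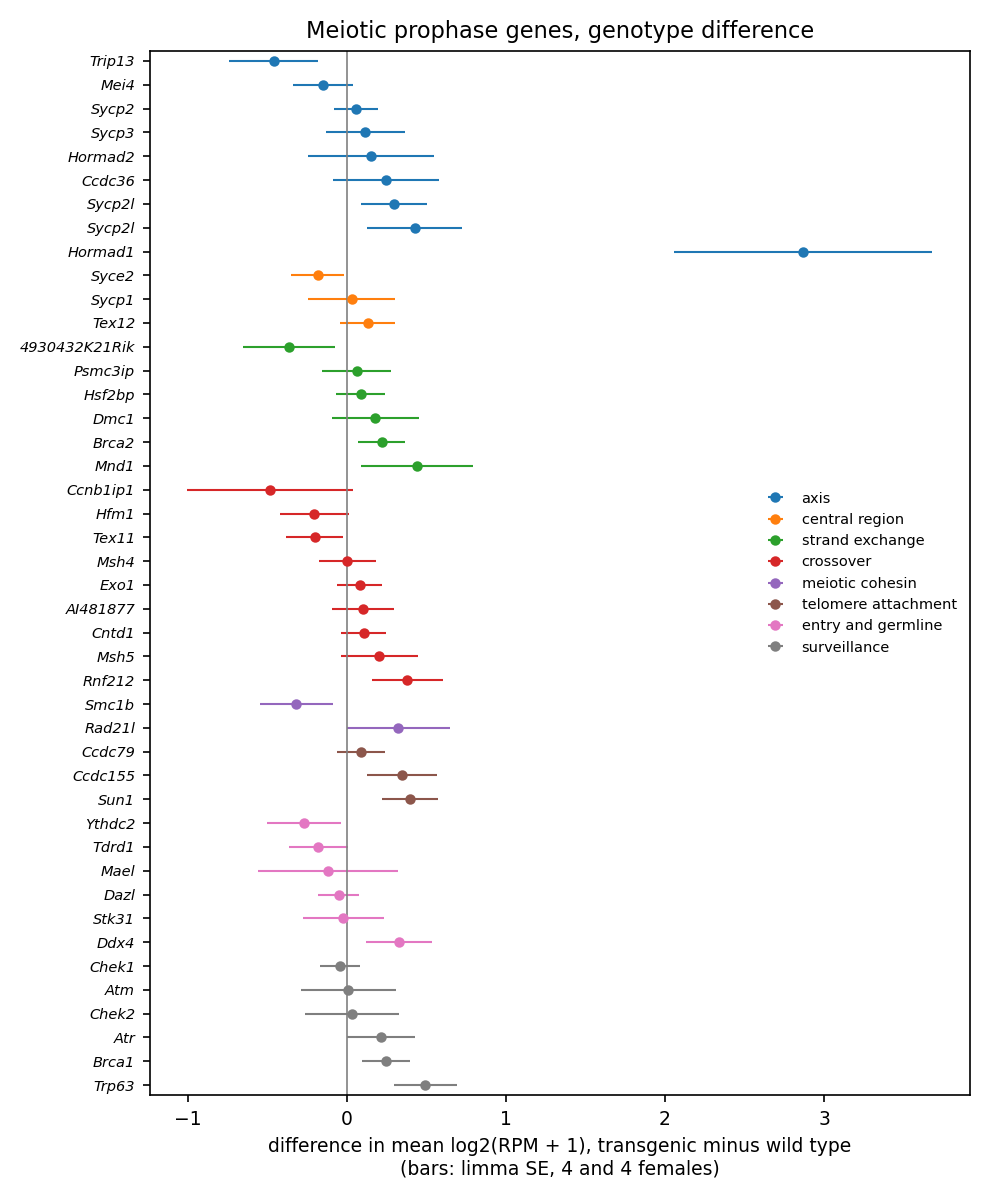
Log2 difference between the genotypes (transgenic minus wild type) for Hormad1 and other tested entries of the prophase list, coloured by role; bars are the standard errors of the fit over 4 and 4 females. Hormad1 lies at 2.87, and the others shown lie between -0.48 and 0.49.

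Mnd1 was the gene on the list most like Hormad1. It encodes the partner of HOP2 in strand exchange and lies on the same chromosome, 11.5 Mb from Hormad1 (chromosome 3, 84087934 to 84155786). It stood at 11.3, 14.6 and 16.9 RPM in the transgenic eggs of lane 2, at 10.9, 11.6 and 14.9 RPM in lane 3 and at 10.9 and 10.8 RPM in lane 4. The transgenic eggs of lane 1 held 4.31 and 2.58 RPM, and wild-type eggs ran from 2.84 to 11.4 RPM with a median of 6.54 RPM. The same 8 eggs were thus high for both genes, although for Mnd1 they overlapped the highest wild-type egg. Pearson's r was 0.75 over the 21 eggs, 0.94 over the 10 transgenic eggs and 0.03 over the 11 wild-type eggs.

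For the 44 entries of the list the median size of r was 0.19, against 0.17 over all tested genes. An r beyond 0.5 in size was reached by Mnd1, AI481877 and Rnf212, 3 of the 44, where 2.30% of all tested genes did. All 3 were positive, and AI481877 stood at 0.53.

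Over all tested genes, the ones most like Hormad1 by the same measure were Fnip2 (r = 0.82), Mnd1 (0.75), the nuclear pore gene Tpr (0.67), the drug efflux pump Abcb1b (0.67), the glutamate receptor gene Gria4 (0.67) and the RNA methyltransferase Trdmt1 (0.66). The genes with the most negative r were Mrpl9, a mitochondrial ribosomal protein gene (-0.74), Plekha1 (-0.72) and Cnksr3 (-0.70). These genes were picked for their likeness in the same eggs, so no test of the genotypes is given for them. In the wild-type eggs alone the r of Tpr was -0.21, of Gria4 -0.22 and of Plekha1 0.05, opposite in sign to that over all eggs. The others kept their sign at smaller sizes: Trdmt1 0.43, Fnip2 0.26, Mnd1 0.03, Abcb1b 0.03, Mrpl9 -0.14 and Cnksr3 -0.25.

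Fnip2, which encodes a folliculin-interacting protein, also lies on chromosome 3 (79455971 to 79567796), 16.1 Mb from Hormad1. It ran from 1.31 to 8.51 RPM in the transgenic eggs of lanes 2 to 4. Wild-type females averaged 0.683 RPM, so Fnip2 reached the level tested only through those transgenic eggs. The transgenic eggs of lane 1 held 0.773 and 0.930 RPM, and wild-type eggs ran from 0 to 1.63 RPM with a median of 0.380 RPM. Of the 8 high Hormad1 eggs 2, at 1.31 and 1.41 RPM of Fnip2, lay within the wild-type range. Its log2 differences in lanes 1 to 4 were 0.41, 2.20, 1.62 and 0.96, so in lane 1 it did not follow Hormad1.

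Mrpl9 mirrored the pattern from 1.12 Mb away (chromosome 3, 94443318 to 94451130). In the transgenic eggs of lane 2, with the most Hormad1, it stood at 25.0, 31.7 and 28.0 RPM, below every wild-type egg, whose values ran from 43.1 to 94.97 RPM. The transgenic eggs of lane 1 held 80.5 and 106 RPM. Within lanes 1 to 4 the log2 difference was 0.85, -1.43, -0.43 and -0.40, opposite in sign to that of Hormad1 in each lane.

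Golph3l, the gene next to Hormad1, is named for its position and was not among the 3 lowest by r. Its r was -0.69 over all eggs and -0.01 over the wild-type eggs alone. Its log2 differences of 0.68, -0.54, -0.45 and -0.71 in lanes 1 to 4 were also opposite in sign to those of Hormad1. No read count of Golph3l was low: it ran from 32.7 to 126 RPM in transgenic and from 55.3 to 109 RPM in wild-type eggs.

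**Figure D4:**
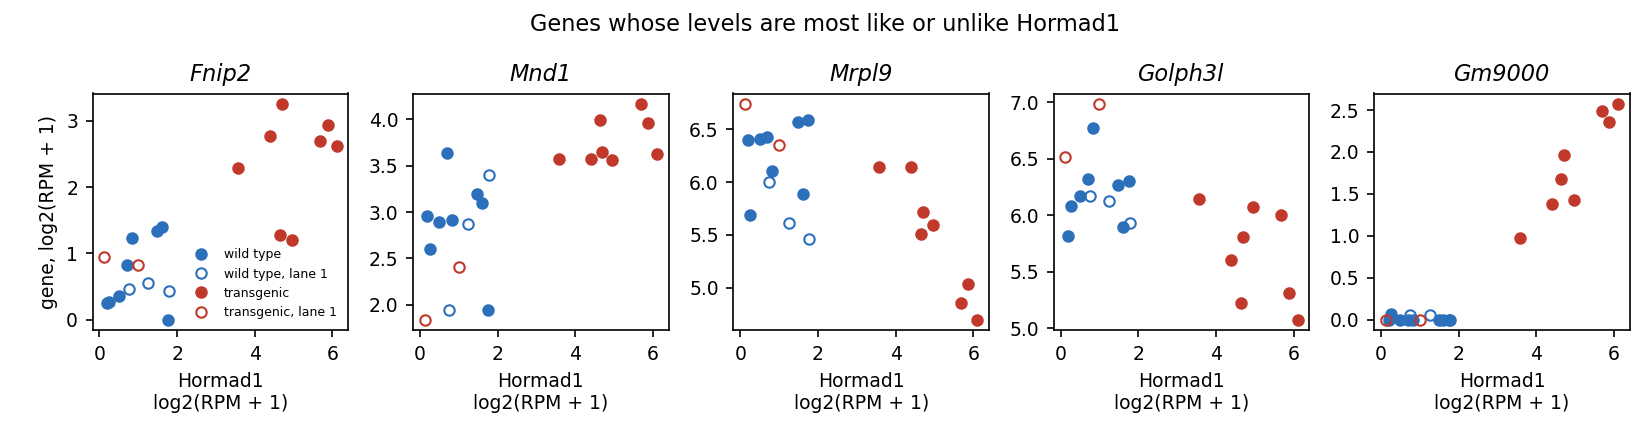
Log2(RPM + 1) of 5 genes against that of Hormad1 in the 21 eggs, wild-type eggs in blue and transgenic eggs in red, with open symbols for lane 1; each panel has its own vertical axis. Fnip2, Mnd1 and Gm9000 are higher and Mrpl9 and Golph3l lower in most of the 8 transgenic eggs with high Hormad1, and the 2 transgenic eggs of lane 1 lie with the wild-type eggs or beyond them on the other side.

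Of the 10 genes with the largest r in size, 4 lie on chromosome 3 (Fnip2, Mnd1, Mrpl9 and Golph3l), and all 4 lie within 20 Mb of Hormad1. Of the top 50, 9 lie on chromosome 3 (18%), and of the top 100, 17 (17%), against 4.77% of all tested genes. An r beyond 0.5 in size was found for 17 of 226 genes within 20 Mb (7.52%), for 12 of 298 farther along the chromosome (4.03%) and for 224 of 10462 on other chromosomes (2.14%). The median size of r differed less, at 0.19, 0.18 and 0.16. Both the count by chromosome and the 20 Mb window were chosen after the likeness values were seen. The strain background of these females is not known here, and its part in these values was not tested.

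**Figure D5:**
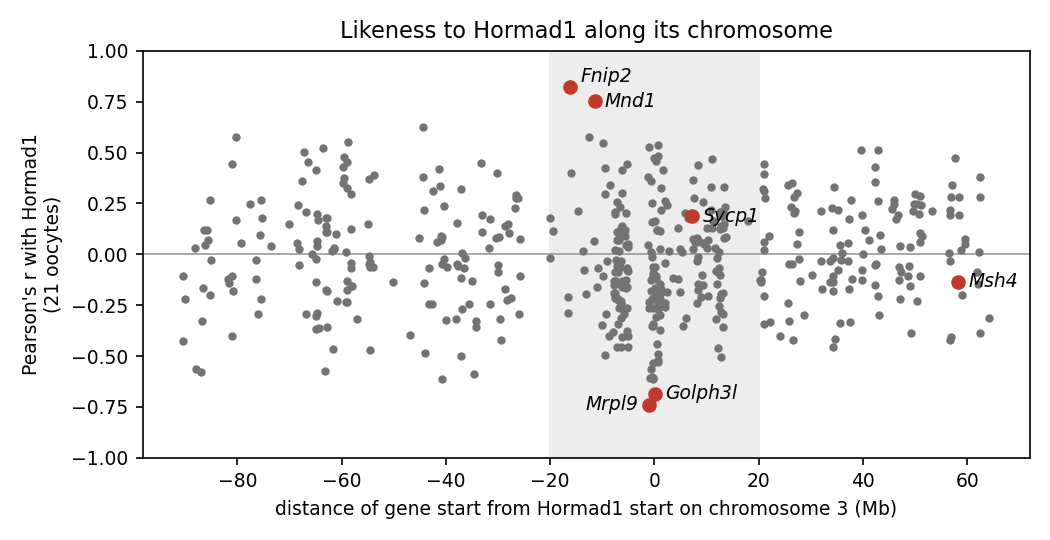
Pearson's r with Hormad1 over 21 eggs for the tested genes of chromosome 3, by the distance of their start from that of Hormad1 in Mb; the grey band spans 20 Mb on each side and 6 genes of the text are marked in red. Fnip2 at 0.82 and Mnd1 at 0.75 are the highest and Mrpl9 at -0.74 the lowest, all within the band, while Sycp1 at 0.19 and Msh4 at -0.14 lie near 0.

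The single closest entry was Gm9000, on chromosome 13 (108670580 to 108671440), with an r of 0.96. Unnamed models were left out of the rule, and this entry is given after its values were seen. Its mean of 1.10 RPM over the 21 eggs passed the level tested only through the transgenic eggs of lanes 2 to 4. Nothing is therefore read from the rank of Gm9000. It held 4.94, 4.11 and 4.61 RPM in the transgenic eggs of lane 2, 0.960, 2.92 and 2.19 RPM in lane 3 and 1.61 and 1.69 RPM in lane 4. Both transgenic eggs of lane 1 had 0 reads, and the 11 wild-type eggs held 3 reads in all. Among the transgenic eggs, Gm9000 thus had reads in the 8 in which Hormad1 was high, and in the wild type no egg had more than 1 read.

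Gm9000 is the processed pseudogene Rps3a3 in GENCODE M21, and it matched the transcript of its parent, Rps3a1 of chromosome 3, in 98.9% of 795 aligned bases. The parent, named Rps3a in the table, lies 9.42 Mb from Hormad1 (86137940 to 86142702) and encodes a protein of the small ribosomal subunit. Rps3a too is given after its values were seen, so nothing is read from its differences. It was lower in transgenic females in all 4 lanes, by log2 differences of -1.02, -1.24, -0.86 and -0.19, and its r with Hormad1 was -0.49. Reads of such close copies can be assigned to either, so the levels of both are uncertain.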

How the data were processed

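Per the labels' protocols, each egg's cDNA was made with SMART-Seq v4 and its library with ThruPLEX. HISAT2, Trim Galore and FastQC, and the builds mm39 and GRCm39, are listed without versions per the submitters' processing notes. No source used here gives the counting tool, its annotation, strand use or the handling of reads with several matches, so overlapping genes could share reads. The authors deposited log2 values described as RPKM, but their steps fit log2 RPM: entries with no reads sit at 0.9 reads, and 100% of 256342 values under 2000 reads were whole to within 0.02 reads. Gene coordinates in the table match GRCm38 and were kept as such.

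RPM was recomputed from these reads, with entries without reads set to 0. Log2(RPM + 1) was averaged over the eggs of a female, and the genotypes (4 and 4 females) were compared by a two-sided limma test (R 4.3.3, limma 3.58.1, eBayes with trend). P-values were adjusted by Benjamini-Hochberg over the 10987 genes that averaged 1 RPM or more, and the threshold was 0.05. RPM replaced the planned RPKM. The main fit used no count model, because the unit deposited is a log2 value. Voom on the recovered reads, summed per female, was an alternative added after the data were seen. The fit was tested on simulated data. Exact binomial intervals came from scipy 1.17.1. Exon lengths, copies and the printed stretch came from GENCODE M21 and its genome. Labels tie eggs to females, but separate litters are not stated. For the transgenic females of lanes 1 and 2, library names also carry a female number other than that in the titles. Both labels group the eggs in the same way.

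Per the labels, a lane held a transgenic and a wild-type female, so lanes pair the females. Correlations between the deviations of the paired females were -0.04, 0.08, 0.34 and 0.32, and the median of unpaired ones was -0.05. The fit with lane as a block was an alternative. Members and gene lists were chosen with earlier results of these data known. Named were the 9 genes, the 3 most abundant entries of each role of the prophase list and those with an unadjusted p under 0.05, the 6 genes with the highest and the 3 with the lowest r with Hormad1 (models named Gm and a number, Rik or -ps left out), and the 3 entries on each side of it; others are said to be chosen after their values were seen, and 1 entry that the rule names is not reported here. Alternatives covered the pseudocount, the filter, the averaging of eggs, the scaling and leaving out each female. The water-only library and egg A of the transgenic female of lane 1 were not analysed here.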

Additional observations from a re-analysis of the deposited data

Results flagged for a closer look

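For each of the 9 genes, the 4 female means per genotype and the 10 transgenic eggs were checked for 1 outlying value. Of these 27 groups 1 stood out, about as many as chance gives at about 1 in 20 groups. That rate is rough, because eggs share females and the Spo11 groups, all at 0, could not stand out. The flagged value was Hormad2 in the wild-type female of lane 4, at 0.381 on the log2(RPM + 1) scale. Her 2 eggs held 0.696 and 0 RPM of Hormad2, against 2.05 to 9.56 RPM in the other wild-type eggs. Without her the log2 difference of Hormad2 between the genotypes was -0.32 in place of 0.15.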

How the results depend on the processing

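Log2 differences of 28 named entries were recomputed under 19 alternatives. Of 532 values, 506 kept their sign and 26 changed it, no entry beside Hormad1, which is given no test, passed the threshold, and the adjusted p of the 6 tested genes beside Hormad1 ran from 0.646 to 1; the 26 lay in 9 genes with differences between -0.15 and 0.15, and the cause was not tested. Leaving out 1 female at a time moved Hormad2 from -0.319 to 0.352, Sycp1 from -0.159 to 0.234, Sycp3 from -0.112 to 0.322, Msh4 from -0.111 to 0.104, Mei4 from -0.237 to 0.044, Hsf2bp from -0.00045 to 0.169, Chek1 from -0.111 to 0.029, Dazl from -0.113 to 0.033 and Stk31 from -0.163 to 0.206. With single eggs and the female as random effect Msh4 stood at -0.012 and Stk31 at 0.043, and with lane as replicate block added at -0.0068 and 0.027. With the median egg of a female Msh4 stood at -0.075 and Sycp1 at -0.0094, and without wild-type egg C of lane 2, an alternative chosen after seeing the data, Sycp1 stood at -0.061. The r with Hormad1 in wild-type eggs alone was -0.206 for Tpr, -0.217 for Gria4 and 0.047 for Plekha1. Counts of genes past the threshold were 0 higher and 0 lower, also with the lane as replicate block on female means (748 genes at an unadjusted p under 0.05 without it, 1028 with it) and with voom on recovered reads. They were 4 higher and 8 lower with single eggs, the female as random effect and the replicate block, Hormad1 and Gm9000 among them. With 1 female left out they were 0 to 1 higher, the 1 without the transgenic female of lane 1. That 1 entry was Hormad1. Hormad1 and Gm9000 were picked for their own values in these eggs, so nothing is read from their calls. The log2 difference of Hormad1 ran from 1.88 with a pseudocount of 5 RPM to 3.97 without that female. On female means no call changed under the replicate block. With single eggs and the female as random effect, the counts without that block were 0 higher and 0 lower. The 4 females a genotype limit what could be seen: the intervals of the 6 tested genes beside Hormad1 reached folds of 0.612 to 2.01. Spo11 had no reads in any egg, and Mlh3 averaged below the level tested, with reads in only some eggs.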
